A study of Mus musculus with 8 samples.

Results

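The Wnt genes described here were the ligands (Wnt), their frizzled receptors (Fzd), the co-receptors Lrp5 and Lrp6, the secreted antagonists of the Sfrp and Dkk families with Frzb and Wif1, and the pathway genes Axin2 and Lef1. They were chosen by gene symbol alone, from array probe sets annotated to exactly 1 gene, with the brightest probe set kept for each gene. This gave 43 genes of the 19938 that carried a name of their own in the table: 19 ligands, 10 frizzled receptors, 2 co-receptors, 6 secreted Wnt binders, 4 Dickkopf genes, and Axin2 and Lef1. Tcf7 was also sought but is not analysed here. The RNA was that of paws excised from DBA/1J males aged 8 to 10 weeks, a strain prone to arthritis, and was hybridised to Affymetrix Mouse Gene 1.0 ST arrays.

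The 4 groups were CIA+MLIF, CIA, adjuvant+MLIF and adjuvant, each of 8 mice and each represented by 2 arrays. Mice with collagen-induced arthritis (CIA) received 150 µg of chicken collagen II at the tail base, emulsified with complete Freund adjuvant, and were boosted in incomplete adjuvant at week 3. Mice of both adjuvant groups received the complete and then the incomplete adjuvant with no collagen, so that adjuvant was common to all 4 groups. MLIF, an anti-inflammatory pentapeptide of the amoeba Entamoeba histolytica, was given nasally each week in the CIA+MLIF and adjuvant+MLIF groups, starting a week before the first injection. Per the sample labels the paws were taken 4 weeks after the booster, although the series text says before it. Both arrays of each group are labelled as biological replicates, but the number of mice per array is not stated. All p-values thus rest on array-to-array spread, which may be partly technical.

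Wnt proteins are secreted lipid-modified ligands that bind a frizzled receptor. With Lrp5 or Lrp6 beside the receptor, the signal stabilises beta-catenin, which then acts with Lef1 and other TCF factors in the nucleus, while other ligand and receptor pairs act on cell polarity and calcium without beta-catenin. Secreted frizzled-related proteins and Wif1 catch the ligand outside the cell, and most Dickkopf proteins block Lrp5 and Lrp6. In bone and joints the pathway is known for driving bone formation and for its restraint in articular cartilage, and in skin for hair follicle growth.

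All values are log2 signals as the authors deposited them, 1 unit being a doubling. The arrays were not on an equal footing: CIA replicate 1 had a median of 6.66 over the 28939 probe sets tested, while the other 7 had medians of 7.07 to 7.10. The median change of all probe sets was -0.25 in CIA against adjuvant and 0.24 in CIA+MLIF against CIA. It was 0.026 in adjuvant+MLIF against adjuvant, -0.030 in CIA+MLIF against adjuvant+MLIF and 0.21 in the interaction. Changes of single genes are therefore given as fitted and, for the main ones, also relative to that median, and the values after quantile normalization stand beside them where the call differs. The replicates of adjuvant+MLIF were unusually close, with an SD of 0.0936 for their difference over all probe sets against 0.207 to 0.324 in the other groups. Since the 4 groups share 1 estimate of the spread, these arrays bear on every call. Calls of the 43 members are given with and without them. Those of the other pathway genes and of the cell type markers were not rerun without them. A call means an adjusted p under 0.05 in 1 limma fit of the 4 groups over all probe sets, with no filter on dim ones.

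Against the array's control entries most of the 43 genes were only moderately bright. On all 8 arrays 35 of them lay above the median of the 6618 unannotated entries at the head of the table, taken here as array controls (5.88 on CIA replicate 1 and 6.29 to 6.44 on the others). Wnt1, Wnt3 and Wnt8b lay below it on every array. Dkk4, Lef1, Wnt6, Wnt7a and Wnt8a lay above it on 1, 7, 6, 1 and 3 arrays, in that order. For these 8 genes a change says little about how much RNA was present. Against the 90th percentile of the same entries (8.97 on CIA replicate 1 and 9.21 to 9.27 on the others), 4 members lay above it on all arrays (Lrp5, Lrp6, Sfrp4 and Wif1) and 36 below it on all. That bar stood above the median of all tested probe sets on every array (6.66 to 7.10), so that most probe sets lay below it too. A signal below it does not mark a gene as absent. Markers of cartilage (7 of 7 measured) lay above the control median on all arrays, and so did those of skeletal muscle and of fibroblasts and synovium.

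The comparison of CIA with adjuvant paws asked what collagen immunisation and arthritis changed in the Wnt genes without peptide. Secreted Wnt binders and frizzled receptors moved in both directions, and no ligand passed. Sfrp2 and Sfrp1, which encode secreted frizzled-related proteins, rose together with the receptors Fzd1 and Fzd6, whereas the receptors Fzd4, Fzd7 and Fzd9 and the antagonists Frzb and Sfrp5 fell. In all, 9 of the 43 members passed (20.9%), against 18.5% of all probe sets, so that the share as such was near the background. Of the members 4 were higher in CIA (9.3%, against 4.3% of all probe sets) and 5 lower (11.6%, against 14.2%). The median change of the members was -0.18, against -0.25 for all probe sets. By role, 0 of 19 ligands, 5 of 10 frizzled receptors, 4 of 10 secreted antagonists and none of the co-receptors, Axin2 and Lef1 passed.

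**Figure D1:**
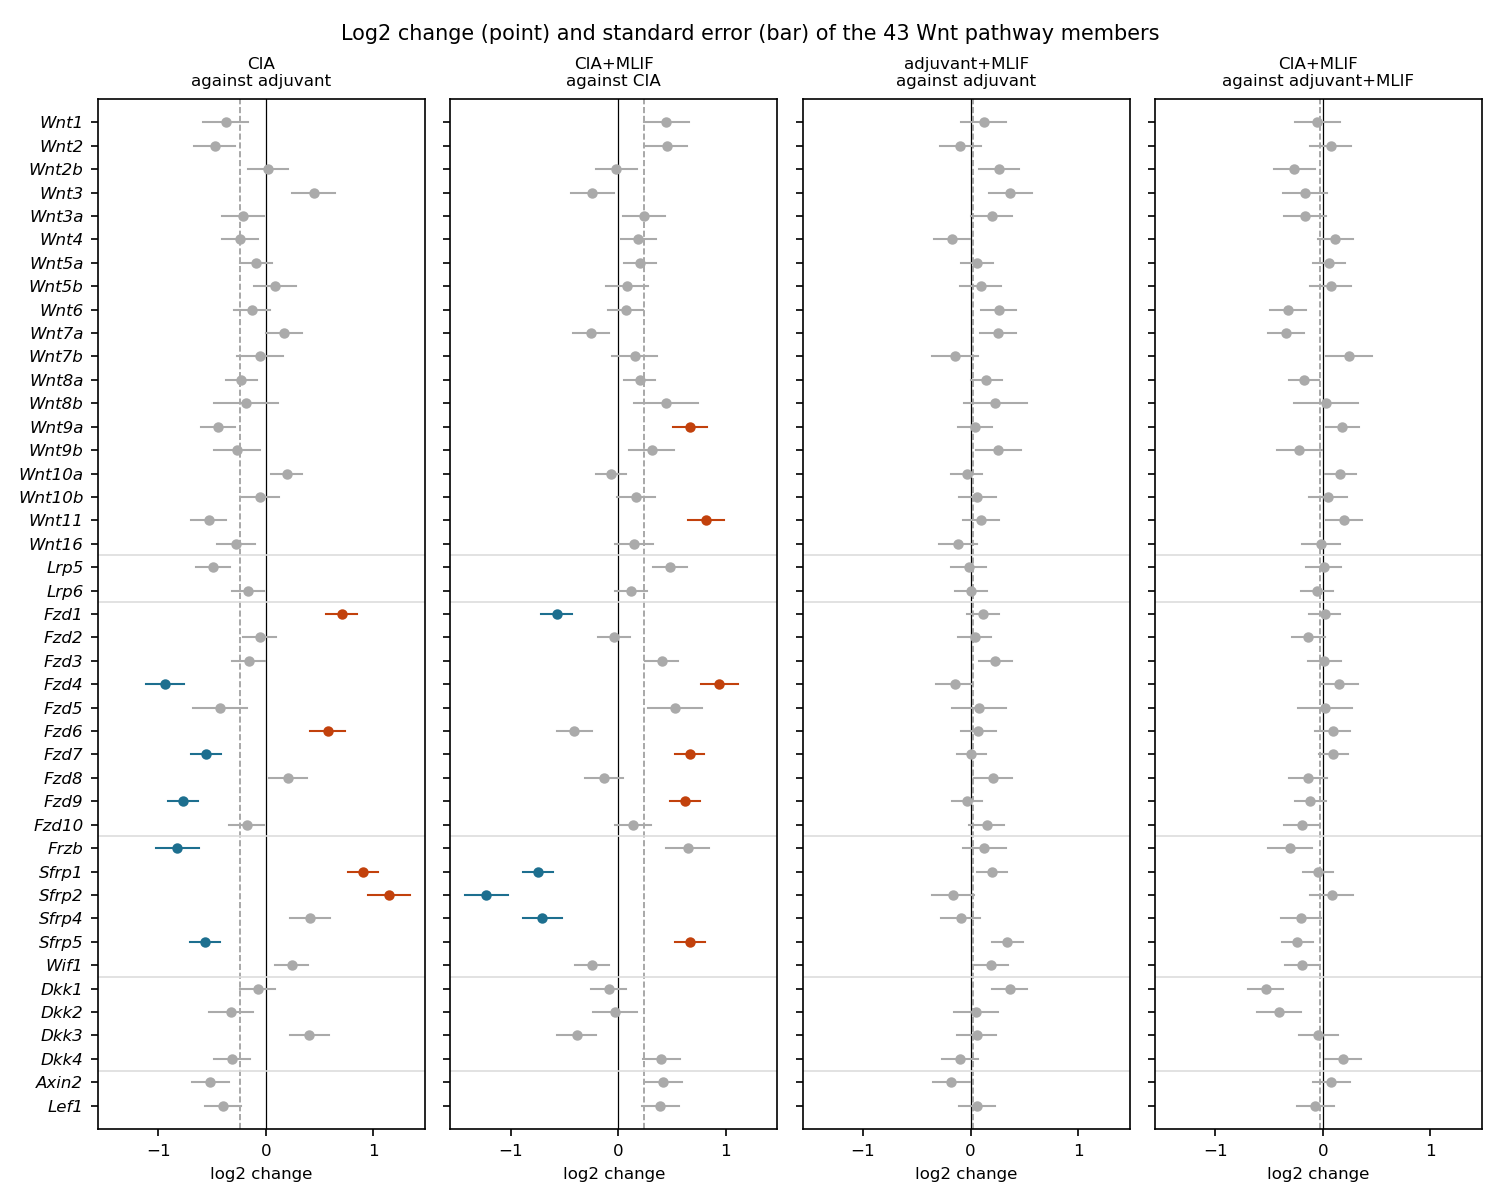
Log2 change (x axis, points) with its standard error (bars) of each of the 43 genes (rows, grouped by role) in 4 comparisons (panels). Orange points rose and blue points fell at an adjusted p under 0.05, grey points did not pass, and the dashed line marks the median of all probe sets. The 9 members that passed in CIA against adjuvant include 5 frizzled receptors and no ligand, 10 passed in CIA+MLIF against CIA, and none passed in the 2 right panels.

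Sfrp2 (probe set 10492798), made by fibroblasts and other stromal cells, had the largest rise among the members. Its log2 signal was 9.12 and 9.11 in CIA+MLIF paws, 10.05 and 10.64 in CIA paws, 9.07 and 9.01 in adjuvant+MLIF paws and 9.13 and 9.27 in adjuvant paws (replicates 1 and 2). Both CIA arrays stood above the 6 others, and the 3 other groups lay within a narrow band. The rise in CIA over adjuvant was 2.21-fold (log2 change 1.14, SE 0.20, adjusted p = 0.00412), or 1.39 log2 units relative to the median of all probe sets. Sfrp1 (10570957), a Wnt antagonist that restrains bone formation in mice, read 7.39 and 7.34 in CIA+MLIF paws, 8.07 and 8.16 in CIA paws, 7.42 and 7.40 in adjuvant+MLIF paws and 7.14 and 7.27 in adjuvant paws. CIA was again high on both arrays without overlap with any other group (log2 change 0.90, SE 0.14, adjusted p = 0.00231, 1.15 relative to the median). Sfrp4 (10403834), whose loss thins cortical bone in humans, read 9.80 and 9.94 in CIA+MLIF paws, 10.37 and 10.79 in CIA paws, 10.09 and 10.07 in adjuvant+MLIF paws and 10.03 and 10.31 in adjuvant paws. The CIA arrays were the highest, but the rise over adjuvant did not pass as deposited (log2 change 0.41, SE 0.18, adjusted p = 0.147). It did after quantile normalization (0.55, adjusted p = 0.00452).

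Frzb and Sfrp5 fell. Frzb (10484307), a frizzled-related antagonist whose loss worsens cartilage damage in mice, read 7.82 and 7.90 in CIA+MLIF paws, 6.94 and 7.49 in CIA paws, 8.18 and 8.15 in adjuvant+MLIF paws and 7.88 and 8.20 in adjuvant paws. The CIA arrays were the lowest and differed from each other by more than those of any other group (log2 change -0.82, SE 0.20, adjusted p = 0.023, -0.58 relative to the median). Sfrp5 (10467744), known from mouse fat as a binder of Wnt5a, read 7.62 and 7.63 in CIA+MLIF paws, 6.90 and 7.02 in CIA paws, 7.84 and 7.90 in adjuvant+MLIF paws and 7.45 and 7.61 in adjuvant paws. It was lowest on the CIA arrays and highest on the adjuvant+MLIF arrays (log2 change -0.57, SE 0.14, adjusted p = 0.0262 for CIA against adjuvant). Relative to the median of all probe sets its fall was -0.32, and it missed the threshold when each array was centred on its median. Wif1, which binds Wnts through a domain of its own, did not pass (log2 change 0.24, adjusted p = 0.291), but did after quantile normalization (0.40, adjusted p = 0.0227).

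Among the receptors, Fzd1 (10527936), a receptor of the beta-catenin branch, read 9.17 and 9.20 in CIA+MLIF paws, 9.65 and 9.87 in CIA paws, 9.15 and 9.19 in adjuvant+MLIF paws and 9.02 and 9.09 in adjuvant paws. The CIA arrays stood clear above all others (log2 change 0.70, SE 0.15, adjusted p = 0.0107, 0.95 relative to the median). Fzd6 (10423825), which orders hair orientation in mouse skin, read 8.46 and 8.43 in CIA+MLIF paws, 8.66 and 9.05 in CIA paws, 8.37 and 8.34 in adjuvant+MLIF paws and 8.27 and 8.29 in adjuvant paws. It was likewise high in CIA alone, with a smaller rise (log2 change 0.58, SE 0.16, adjusted p = 0.0402, 0.82 relative to the median). The 5 receptors that did not pass changed by -0.43 (Fzd5) to 0.20 (Fzd8), with adjusted p between 0.24 and 0.794.

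Fzd4 (10554808), a receptor for Wnts and for norrin that is needed for retinal vessels in mice, read 10.05 and 9.98 in CIA+MLIF paws, 8.87 and 9.28 in CIA paws, 9.87 and 9.86 in adjuvant+MLIF paws and 10.13 and 9.90 in adjuvant paws. Both CIA arrays lay clearly below every other array (log2 change -0.94, SE 0.17, adjusted p = 0.0062, -0.69 relative to the median), the largest fall among the members. Fzd7 (10346607), a receptor of muscle stem cells in mice, read 9.07 and 9.01 in CIA+MLIF paws, 8.38 and 8.38 in CIA paws, 8.94 and 8.95 in adjuvant+MLIF paws and 8.97 and 8.90 in adjuvant paws. The CIA replicates agreed to the second decimal although their array medians did not (log2 change -0.56, SE 0.14, adjusted p = 0.0227). Fzd9 (10534426), which promotes bone formation in mice, read 7.60 and 7.55 in CIA+MLIF paws, 6.99 and 6.93 in CIA paws, 7.70 and 7.68 in adjuvant+MLIF paws and 7.81 and 7.65 in adjuvant paws. It was low on both CIA arrays and level elsewhere (log2 change -0.77, SE 0.14, adjusted p = 0.00556). Relative to the median of all probe sets the falls were -0.31 for Fzd7 and -0.53 for Fzd9, and that of Fzd7 missed the threshold when each array was centred on its median.

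**Figure D2:**
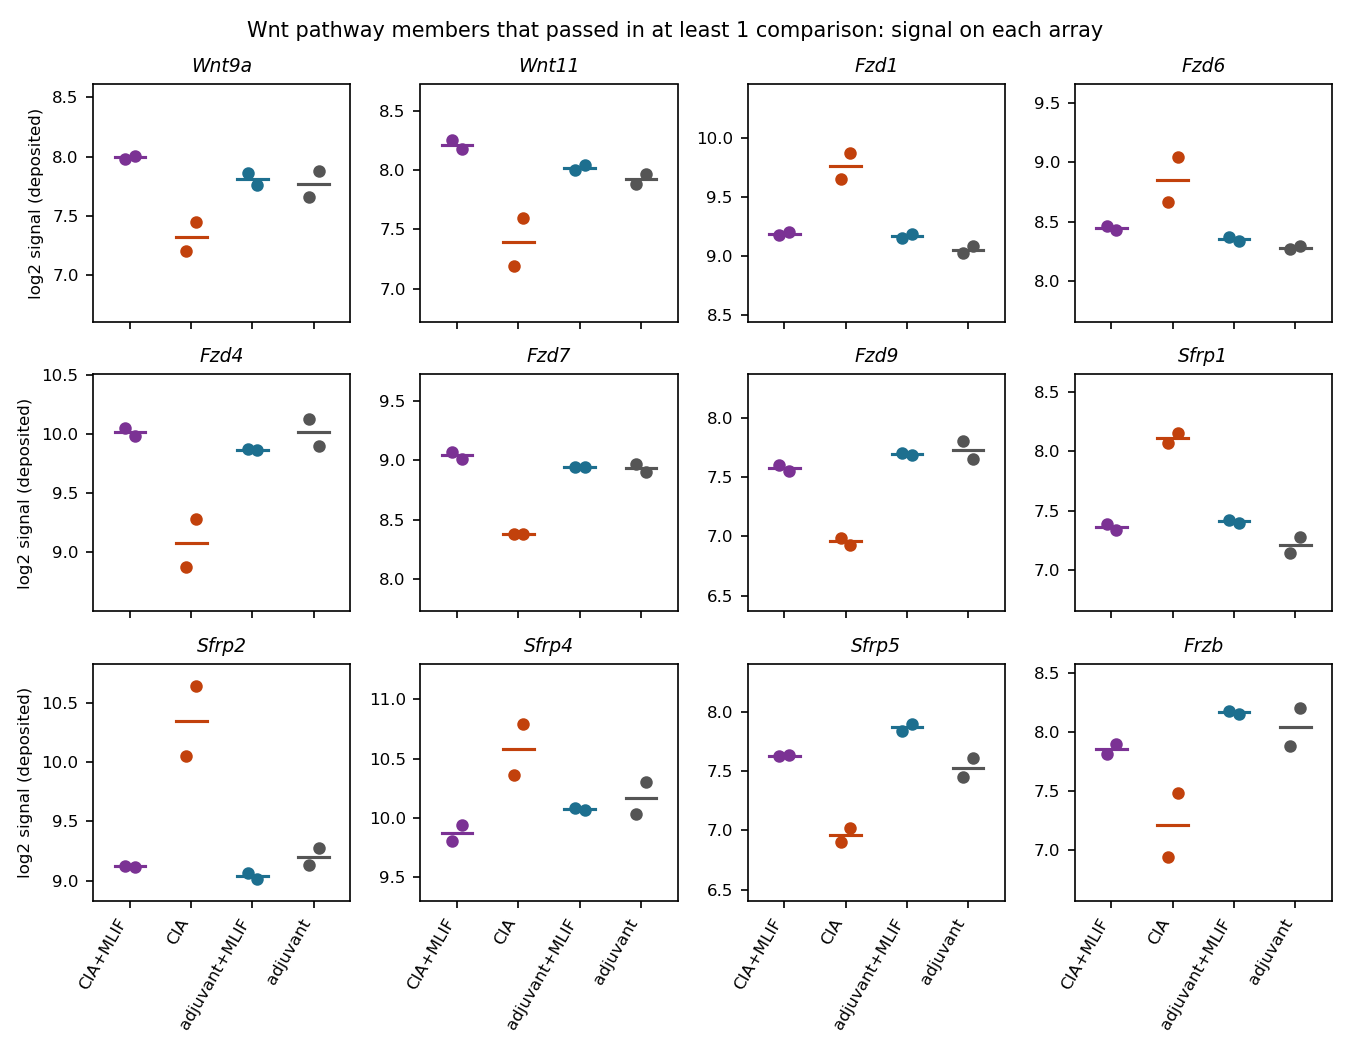
Deposited log2 signal (y axis, of equal height in every panel) of the 12 members that passed in at least 1 comparison, on each array (points) with the group mean (line). The CIA arrays lie apart from the other 3 groups in every panel, above them for Fzd1, Fzd6, Sfrp1, Sfrp2 and Sfrp4 and below them for the other 7 genes.

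The promoters of the 2 largest rises and the 2 largest falls with an entry in RefSeq's promoter table (29 of the 43 genes have one) are shown, because these genes moved oppositely in the same paws. Each is the 250 bases before the gene's start on GRCm38.p6, 5′ to 3′ on the gene's own strand: Sfrp2 at chr3:83766071-83766320 (plus strand) and Fzd1 at chr5:4758217-4758466 (minus), which rose, and Fzd4 at chr7:89404116-89404365 (plus) and Frzb at chr2:80447397-80447646 (minus), which fell. Capitals mark matches to the motifs searched on both strands.
Sfrp2: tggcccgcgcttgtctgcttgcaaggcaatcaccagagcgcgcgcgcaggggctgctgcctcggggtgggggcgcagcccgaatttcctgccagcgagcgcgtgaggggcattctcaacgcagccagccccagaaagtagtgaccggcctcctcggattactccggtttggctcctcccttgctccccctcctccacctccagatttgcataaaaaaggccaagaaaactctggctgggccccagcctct
Fzd1: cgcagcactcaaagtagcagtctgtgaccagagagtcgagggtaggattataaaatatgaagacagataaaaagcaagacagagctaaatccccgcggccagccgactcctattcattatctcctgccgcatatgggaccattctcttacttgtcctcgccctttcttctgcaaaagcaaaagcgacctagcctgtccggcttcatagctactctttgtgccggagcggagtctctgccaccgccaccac
Fzd4: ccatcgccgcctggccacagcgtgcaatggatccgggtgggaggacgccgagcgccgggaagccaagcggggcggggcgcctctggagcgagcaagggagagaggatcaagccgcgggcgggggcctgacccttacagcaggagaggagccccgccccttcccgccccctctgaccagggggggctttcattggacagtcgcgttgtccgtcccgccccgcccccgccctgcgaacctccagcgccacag
Frzb: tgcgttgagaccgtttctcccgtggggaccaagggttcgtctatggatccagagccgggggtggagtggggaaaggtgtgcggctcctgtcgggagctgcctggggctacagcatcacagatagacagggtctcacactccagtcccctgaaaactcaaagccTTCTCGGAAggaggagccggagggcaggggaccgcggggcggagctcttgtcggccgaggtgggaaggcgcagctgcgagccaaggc

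The motifs were the TCF/LEF core (CTTTG followed by any 2 letters that are each A or T), the AP-1 site TGANTCA and the STAT site TTCNNNGAA. Of the 4 windows, that of Frzb held 1 STAT match, at bases -87 to -79 from the start, and the others held none of the 3. Over all 32851 windows of the same length, 14.8% held a TCF/LEF core, 6.75% an AP-1 site and 7.02% a STAT site. Among the 29 members with a window, 5 held a TCF/LEF core, 1 an AP-1 site and 2 a STAT site. The windows of Sfrp2, Fzd4 and Frzb were rich in G and C (63.6%, 72.8% and 64.4%), and that of Fzd1 (51.2%) was near the median of all windows (52.4%).

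No ligand passed as deposited. Their changes in CIA against adjuvant ran from -0.53 for Wnt11 to 0.45 for Wnt3, with a median of -0.18 against -0.25 for all probe sets and with adjusted p between 0.0557 and 0.954. Wnt11 (10555186), a ligand that acts mainly without beta-catenin, read 8.25 and 8.17 in CIA+MLIF paws, 7.19 and 7.59 in CIA paws, 8.00 and 8.04 in adjuvant+MLIF paws and 7.88 and 7.97 in adjuvant paws. It was lowest in CIA but missed the threshold as deposited (adjusted p = 0.0557) and met it after quantile normalization (-0.38, adjusted p = 0.0162). Wnt9a (10376490), a ligand of joint formation in mice, read 7.98 and 8.01 in CIA+MLIF paws, 7.21 and 7.44 in CIA paws, 7.86 and 7.76 in adjuvant+MLIF paws and 7.66 and 7.88 in adjuvant paws. Its CIA arrays were also the lowest (log2 change -0.44, SE 0.16, adjusted p = 0.0797). Wnt5a (10413482), a ligand of synovial fibroblasts, read 7.49 and 7.59 in CIA+MLIF paws, 7.22 and 7.45 in CIA paws, 7.52 and 7.45 in adjuvant+MLIF paws and 7.41 and 7.44 in adjuvant paws. The CIA and adjuvant arrays of Wnt5a overlapped (log2 change -0.089, SE 0.15, adjusted p = 0.682). Wnt3 passed after quantile normalization (0.81, adjusted p = 0.00837), at a signal below the controls.

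The co-receptors, the Dickkopf genes and the nuclear genes gave no call. Lrp5 (10464504), whose gain and loss of function set bone mass in humans, read 9.65 and 9.66 in CIA+MLIF paws, 8.99 and 9.36 in CIA paws, 9.63 and 9.67 in adjuvant+MLIF paws and 9.71 and 9.62 in adjuvant paws. It was lowest in CIA, where its replicates differed most (log2 change -0.49, SE 0.16, adjusted p = 0.0648), and it passed after quantile normalization (-0.36, adjusted p = 0.0356). Lrp6 (10548701) read 9.46 and 9.61 in CIA+MLIF paws, 9.31 and 9.52 in CIA paws, 9.60 and 9.57 in adjuvant+MLIF paws and 9.57 and 9.61 in adjuvant paws, with CIA replicate 1 lowest (log2 change -0.17, SE 0.15, adjusted p = 0.427). Dkk1 (10467006), the Lrp5 and Lrp6 blocker that tumour necrosis factor induces in arthritic mouse joints, read 7.45 and 7.19 in CIA+MLIF paws, 7.29 and 7.52 in CIA paws, 7.88 and 7.81 in adjuvant+MLIF paws and 7.42 and 7.55 in adjuvant paws. CIA and adjuvant overlapped for Dkk1 (log2 change -0.078, SE 0.16, adjusted p = 0.745), and the highest arrays were those of adjuvant+MLIF. The other Dickkopf genes changed by -0.33 (Dkk2) to 0.40 (Dkk3), and Dkk3, the member of the family that does not block Wnt receptors in the usual way, passed after quantile normalization (0.54, adjusted p = 0.0116).

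Axin2 and Lef1 bear on the output of the pathway. Axin2 (10382228), a scaffold of the beta-catenin destruction complex and a widely used target gene, read 7.35 and 7.44 in CIA+MLIF paws, 6.80 and 7.15 in CIA paws, 7.40 and 7.23 in adjuvant+MLIF paws and 7.60 and 7.38 in adjuvant paws. The CIA arrays were the lowest (log2 change -0.52, SE 0.17, adjusted p = 0.0676), by -0.27 relative to the median of all probe sets. Lef1 (10496091), a nuclear partner of beta-catenin, read 6.59 and 6.56 in CIA+MLIF paws, 5.99 and 6.38 in CIA paws, 6.67 and 6.62 in adjuvant+MLIF paws and 6.67 and 6.50 in adjuvant paws. It too was lowest in CIA (log2 change -0.40, SE 0.17, adjusted p = 0.129), by -0.16 relative to the median and at a signal close to the control entries. Neither passed after quantile normalization.

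The calls of Sfrp1 and Sfrp2 in CIA against adjuvant were kept in all 18 other settings tried. Those of the 7 other genes were lost in 2 (Fzd4), 3 (Fzd9), 4 (Fzd1 and Frzb), 8 (Fzd7 and Sfrp5) and 9 (Fzd6) of them. Fzd6, Fzd7 and Sfrp5 lost theirs when either adjuvant+MLIF array was left out or both were averaged. The count of members fell to 2 without adjuvant replicate 1 and to 4 without adjuvant replicate 2, was 6 without either adjuvant+MLIF array or with those arrays averaged as 1, and was 25 without CIA replicate 2, when the dim CIA replicate 1 stood alone for its group (61.2% of all probe sets passed there). Without CIA replicate 1 it was 11, 9 of them shared, and after quantile normalization 15 (8 higher and 7 lower, beside 14.4% higher and 13.6% lower among all probe sets), again with all 9 shared. Centred on array medians, 8 were higher and 4 lower.

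The comparison of CIA+MLIF with CIA paws asked what the peptide, started before the first injection, changed in collagen-immunised mice. The secreted binders Sfrp2, Sfrp1 and Sfrp4 and the receptor Fzd1 were lower with MLIF, and the receptors Fzd4, Fzd7 and Fzd9, the antagonist Sfrp5 and the ligands Wnt11 and Wnt9a were higher. Of the 43 members 10 passed (23.3%, against 14.7% of all probe sets), 6 higher (14%, against 11.5%) and 4 lower (9.3%, against 3.26%). The members' median change was 0.17, against 0.24 for all probe sets. The CIA arrays are shared with the comparison above, so that a gene set apart in CIA moves oppositely in both by construction.

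The per-array values given above show the CIA+MLIF arrays lying closer to the adjuvant arrays than to CIA for these genes. Sfrp2 was 2.34-fold lower in CIA+MLIF (log2 change -1.23, SE 0.20, adjusted p = 0.00392), or -1.47 relative to the median of all probe sets. Sfrp1 fell by a smaller amount (log2 change -0.75, SE 0.14, adjusted p = 0.0081), with -0.99 relative to the median. Sfrp4 passed here, although not in CIA against adjuvant, and its CIA+MLIF arrays were the lowest of all 8 (log2 change -0.71, SE 0.18, adjusted p = 0.0339). Sfrp5 rose (log2 change 0.67, SE 0.14, adjusted p = 0.0155). Frzb was higher on both CIA+MLIF arrays than on both CIA arrays without passing (log2 change 0.64, SE 0.20, adjusted p = 0.064), and passed after quantile normalization (0.48, adjusted p = 0.0177).

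Of the receptors, Fzd4 rose most (log2 change 0.94, SE 0.17, adjusted p = 0.00773), and its CIA+MLIF arrays reached the level of the adjuvant arrays. Fzd7 (log2 change 0.66, SE 0.14, adjusted p = 0.0126) and Fzd9 (log2 change 0.62, SE 0.14, adjusted p = 0.0197) rose and Fzd1 fell (log2 change -0.57, SE 0.15, adjusted p = 0.0315). The rise of Fzd9 missed the threshold after quantile normalization (0.43, adjusted p = 0.063), and Fzd7 and Fzd9 both missed it when each array was centred on its median. Fzd6 was lower with MLIF on both arrays (log2 change -0.41, SE 0.16, adjusted p = 0.121) and passed after quantile normalization (-0.55, adjusted p = 0.00354). The other 5 receptors changed by -0.14 (Fzd8) to 0.53 (Fzd5) without passing, and of these the widest split between replicates was that of Fzd5, which read 7.06 and 7.90 in CIA.

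Of the ligands 2 of 19 passed, Wnt11 (log2 change 0.82, SE 0.17, adjusted p = 0.0121) and Wnt9a (log2 change 0.67, SE 0.16, adjusted p = 0.0226). Both had their 2 highest arrays in CIA+MLIF. The 17 others changed by -0.25 (Wnt7a) to 0.45 (Wnt2) and had adjusted p between 0.138 and 0.957. Wnt3, at a signal below the controls, passed after quantile normalization (-0.60, adjusted p = 0.0334). Wnt9a lies next to Wnt3a on chromosome 11 in RefSeq's gene order, 1 of 4 such neighbouring pairs among the members, and Wnt3a changed by 0.24 (adjusted p = 0.395), with no test of the difference between them. In the 3 other pairs, Wnt6 with Wnt10a, Wnt9b with Wnt3 and Wnt10b with Wnt1, the changes ran from -0.24 to 0.45 and none passed as deposited.

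Lrp5 was higher with MLIF without passing (log2 change 0.48, SE 0.16, adjusted p = 0.0782), and passed after quantile normalization (0.36, adjusted p = 0.0417). Lrp6 changed by 0.12 (adjusted p = 0.599). Axin2 (0.42, adjusted p = 0.131) and Lef1 (0.39, adjusted p = 0.145) did not pass, nor did Wnt5a (0.20, adjusted p = 0.358). Relative to the median of all probe sets Axin2 differed by 0.18 and Lef1 by 0.15. Dkk1 changed by -0.089 (adjusted p = 0.719). Among the secreted antagonists outside the Sfrp family, Dkk3 and Wif1 passed after quantile normalization (-0.52, adjusted p = 0.0157, and -0.40, adjusted p = 0.0253).

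Sfrp2 alone kept its call for CIA+MLIF against CIA in all 18 other settings. The calls of Fzd1, Fzd7, Fzd9, Sfrp4, Sfrp5 and Wnt9a were lost when either adjuvant+MLIF array was left out or both were averaged. Without either CIA+MLIF array 1 member passed (Sfrp2), without either adjuvant array 8, and without either adjuvant+MLIF array or with those averaged 4, while 27 passed without CIA replicate 2 (60% of all probe sets did) and 11 without CIA replicate 1. After quantile normalization 15 passed, 7 higher and 8 lower (11.5% and 13% of all probe sets), 9 of them shared with the 10, and with arrays centred 5 were higher and 7 lower.

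**Figure D3:**
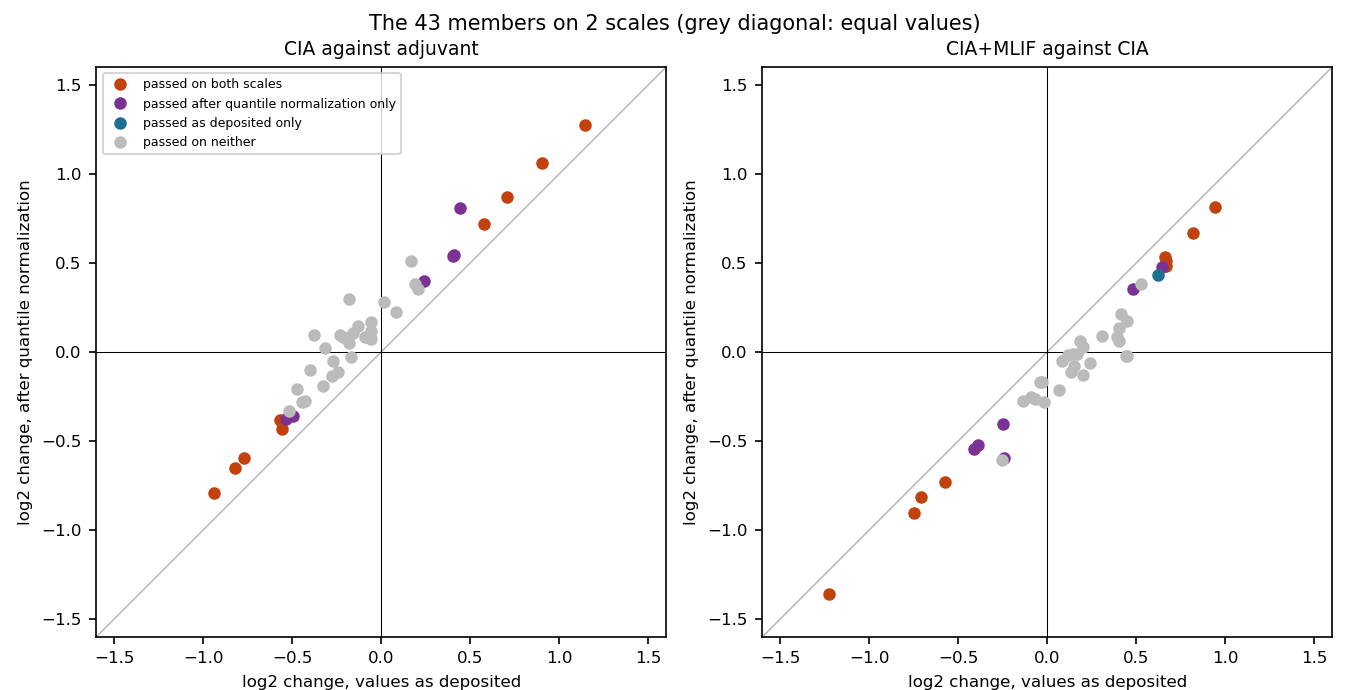
Log2 change of the 43 members as deposited (x axis) against that after quantile normalization (y axis), for CIA against adjuvant (left) and CIA+MLIF against CIA (right). The points lie off the diagonal, above it on the left and below it on the right, by amounts that differ between genes. In CIA against adjuvant Sfrp2 was 1.14 as deposited and 1.28 after quantile normalization, Fzd4 -0.94 and -0.79, and the dim Wnt8b -0.18 and 0.30. Relative to the median of all probe sets, Sfrp2 (1.39) and Fzd4 (-0.69) lay further from the deposited change than after quantile normalization. No member that passed as deposited changed direction. Of the members, 9 passed on both scales in each panel, and Fzd9 passed as deposited alone on the right.

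The comparison of adjuvant+MLIF with adjuvant paws asked what the peptide changed without collagen. No member passed in limma, and no probe set at all did (0%). After quantile normalization 0 members passed, beside 0.0864% of all probe sets higher and 1.17% lower. At an unadjusted p under 0.05 there was 1 member, Sfrp5 (0.34, SE 0.14, adjusted p = 1), and 1107 probe sets. With array weights 2 members passed, Dkk1 and Sfrp5, where 4.97% of all probe sets did. Each adjuvant+MLIF array weighed 7.77 there, each adjuvant array 1.24, each CIA+MLIF array 0.75 and each CIA array 0.14. That setting thus leans on the close adjuvant+MLIF replicates. The members' changes ran from -0.18 (Axin2) to 0.37 (Wnt3), with a median of 0.073 against 0.026 for all probe sets. The changes of the genes named above were -0.16 for Sfrp2, 0.20 for Sfrp1, -0.15 for Fzd4, 0.11 for Fzd1 and 0.093 for Wnt11.

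CIA+MLIF against adjuvant+MLIF asked what collagen immunisation changed in mice given the peptide. Again none of the 43 members passed in limma, against 0.729% of all probe sets (0.712% higher and 0.0173% lower). After quantile normalization 0 members passed as well, beside 1.23% of all probe sets higher and 0.197% lower. At an unadjusted p under 0.05 there was 1 member, Dkk1, which was lower on both CIA+MLIF arrays. It passed with array weights, which lean on the adjuvant+MLIF arrays and with which 2.28% of all probe sets passed. As deposited its log2 change was -0.53 (SE 0.16, adjusted p = 0.548 in limma). The changes ran from there to 0.24 (Wnt7b), with a median of -0.043 against -0.030 for all probe sets. Sfrp2 differed by 0.081, Sfrp1 by -0.046, Fzd1 by 0.018, Fzd4 by 0.15 and Frzb by -0.31 on the log2 scale, each with adjusted p = 1.

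Whether MLIF acted differently in collagen and adjuvant mice was tested as an interaction. Of the members 2 passed (4.65%, against 7.24% of all probe sets, 5.62% higher and 1.62% lower): Fzd4, whose change with MLIF was upward in collagen mice relative to adjuvant mice (log2 change 1.09, SE 0.25, adjusted p = 0.0296), and Sfrp1, whose change was downward in the same sense (log2 change -0.95, SE 0.20, adjusted p = 0.0207). Sfrp2 differed by more than Sfrp1 but missed the threshold (log2 change -1.06, SE 0.28, adjusted p = 0.0553). After quantile normalization 11 passed, 2 higher and 9 lower (8.61% and 8.79% of all probe sets), among them Sfrp2 (-1.16, adjusted p = 0.0028), Fzd1 (-0.81, adjusted p = 0.00312) and Wnt11 (0.60, adjusted p = 0.0153). With arrays centred 2 were higher and 8 lower. No member passed as deposited when any array of the CIA+MLIF, adjuvant+MLIF or adjuvant groups was left out, and 10 and 18 passed without CIA replicate 1 and 2.

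Of 80 further pathway genes listed beside the members, 79 were measured. Their calls were not rerun with arrays left out. In CIA against adjuvant 10 of the 79 rose, where 4.3% of all probe sets did, and 6 fell, where 14.2% did. In all 20.3% passed, against 18.5% of all probe sets. After quantile normalization 19 rose and 10 fell, where 14.4% and 13.6% of all probe sets did (28.1% in all). The largest rises were Cthrc1 (log2 change 3.31, SE 0.16), a secreted protein of activated fibroblasts that binds Wnts, Ccn5 (0.95, SE 0.17), Ccn4 (0.90, SE 0.15) and Myc (0.83, SE 0.15), the last 3 often used as Wnt targets but answering to other signals too. The largest falls were Sost (-1.30, SE 0.18), the osteocyte inhibitor of Lrp5 and Lrp6, Gpc3 (-1.12, SE 0.24), a glypican, Tnfrsf11b (-0.86, SE 0.23), which encodes osteoprotegerin, and Lgr6 (-0.71, SE 0.16), an R-spondin receptor. Adjusted p ran from 2.95e-06 (Cthrc1) to 0.0331 (Tnfrsf11b) over these 8. Of 12 target genes measured, 6 rose and 1 fell, beside 4.3% higher and 14.2% lower among all probe sets. Among these rises, Fosl1 and Sp8 had adjuvant means of 5.96 and 5.75, below that group's control medians of 6.39 and 6.29. The size of these 2 rises is therefore uncertain. Of 21 cytoplasmic genes 2 passed (Ctnnbip1 rose and Apc fell), and of 10 nuclear ones 1 (Tcf7l2 fell).

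In CIA+MLIF against CIA 6 of the 79 rose, where 11.5% of all probe sets did, and 6 fell, where 3.26% did. In all 15.2% passed, against 14.7% of all probe sets. After quantile normalization 10 rose and 15 fell, where 11.5% and 13% of all probe sets did (24.5% in all). Ccn4 (-0.85, SE 0.15), Myc (-0.69, SE 0.15) and Fosl1 (-0.64, SE 0.17) fell beside Cthrc1 (-2.99, SE 0.16). The mean of Fosl1 was 5.97 in CIA+MLIF, below that group's control medians of 6.35 to 6.39, so that the size of its fall is uncertain. Gpc3 (0.99, SE 0.24), Sost (0.90, SE 0.18), Lgr6 (0.71, SE 0.16) and Znrf3 (0.70, SE 0.19), which removes frizzled receptors from the cell surface, rose, with adjusted p between 0.0123 and 0.0407. None of the 79 passed in adjuvant+MLIF against adjuvant or CIA+MLIF against adjuvant+MLIF in limma. In the interaction Cthrc1 (-3.21), Ccn4 (-1.03) and Sost (1.05) passed, 3.8% of the list against 7.24% of all probe sets (5.62% higher and 1.62% lower). After quantile normalization 3 of the list were higher and 9 lower, beside 8.61% and 8.79% of all probe sets (17.4% in all).

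Markers of other tissues in the paw moved on the same arrays. In bulk tissue, fewer cells of a type and less RNA per cell cannot be told apart. The summed linear signal of 8 epidermal genes (of 10 listed) was 15589 to 17467 in CIA+MLIF, 24331 to 28758 in CIA, 788 to 803 in adjuvant+MLIF and 745 to 799 in adjuvant paws, where 4 or 5 of the 8 lay below the control median. In CIA+MLIF against adjuvant+MLIF, 7 of these 8 genes rose, and none of the 43 Wnt genes passed. Skeletal muscle genes, 10 of 10 measured, summed to 70799 to 82989 in CIA+MLIF, 35854 to 40777 in CIA, 79865 to 79930 in adjuvant+MLIF and 76184 to 81737 in adjuvant paws, and all 10 fell in CIA against adjuvant and rose in CIA+MLIF against CIA. Their sum was lowest in CIA, as was that of the adipocyte genes, and Fzd4, Fzd7, Fzd9, Sfrp5 and Frzb were lowest there too.

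The 6 adipocyte genes, all of which fell in CIA against adjuvant, summed to 6721 to 8498 in CIA+MLIF, 2980 to 4736 in CIA, 8206 to 8229 in adjuvant+MLIF and 8040 to 9616 in adjuvant paws. The sum over bone-forming cell genes, 7 of 8 measured, was highest in CIA (6699 to 8002). It was 3577 to 4324 in CIA+MLIF, 4734 to 4831 in adjuvant+MLIF and 4165 to 4634 in adjuvant paws. Of these 7 genes 3 rose in CIA against adjuvant and 5 fell in CIA+MLIF against CIA, and Mepe and Phex were not highest on both CIA arrays. The sum over hair follicle genes, 8 of 9 measured, was 973 to 1004 in CIA+MLIF, 1789 to 2182 in CIA, 821 to 824 in adjuvant+MLIF and 769 to 818 in adjuvant paws. Of these 8, 5 rose in CIA against adjuvant and 4 fell in CIA+MLIF against CIA. Krt35 was highest in CIA+MLIF, and Hoxc13, Dlx3 and Msx2 were not highest on both CIA arrays. The sum over 7 fibroblast and synovium genes was 30963 to 36243 in CIA+MLIF, 41828 to 43775 in CIA, 38384 to 38387 in adjuvant+MLIF and 34490 to 36915 in adjuvant paws. Only 3 of the 7 rose in CIA against adjuvant and 1 fell, and in CIA+MLIF against CIA 1 rose and 3 fell. Cd55, a synovial lining marker, was lowest in CIA, and Dcn and Prg4 were not highest there. The 6 neutrophil genes, all of which rose in CIA against adjuvant and fell in CIA+MLIF against CIA, summed to 1483 to 1719 in CIA+MLIF, 5920 to 6895 in CIA, 2742 to 2745 in adjuvant+MLIF and 1261 to 1529 in adjuvant paws. Of the 6 T cell genes measured (of 8), none passed in CIA against adjuvant, and 1 to 3 lay below the control median on every array. The 7 cartilage genes summed to 6393 to 7204 in CIA+MLIF, 6471 to 7334 in CIA, 7382 to 7383 in adjuvant+MLIF and 6285 to 7102 in adjuvant paws. The sums over epidermal, hair follicle, neutrophil, bone-forming cell and fibroblast genes were all highest in CIA, as Sfrp1, Sfrp2, Sfrp4, Fzd1 and Fzd6 were. The part of these tissues in the changes of the Wnt genes was not tested.

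**Figure D4:**
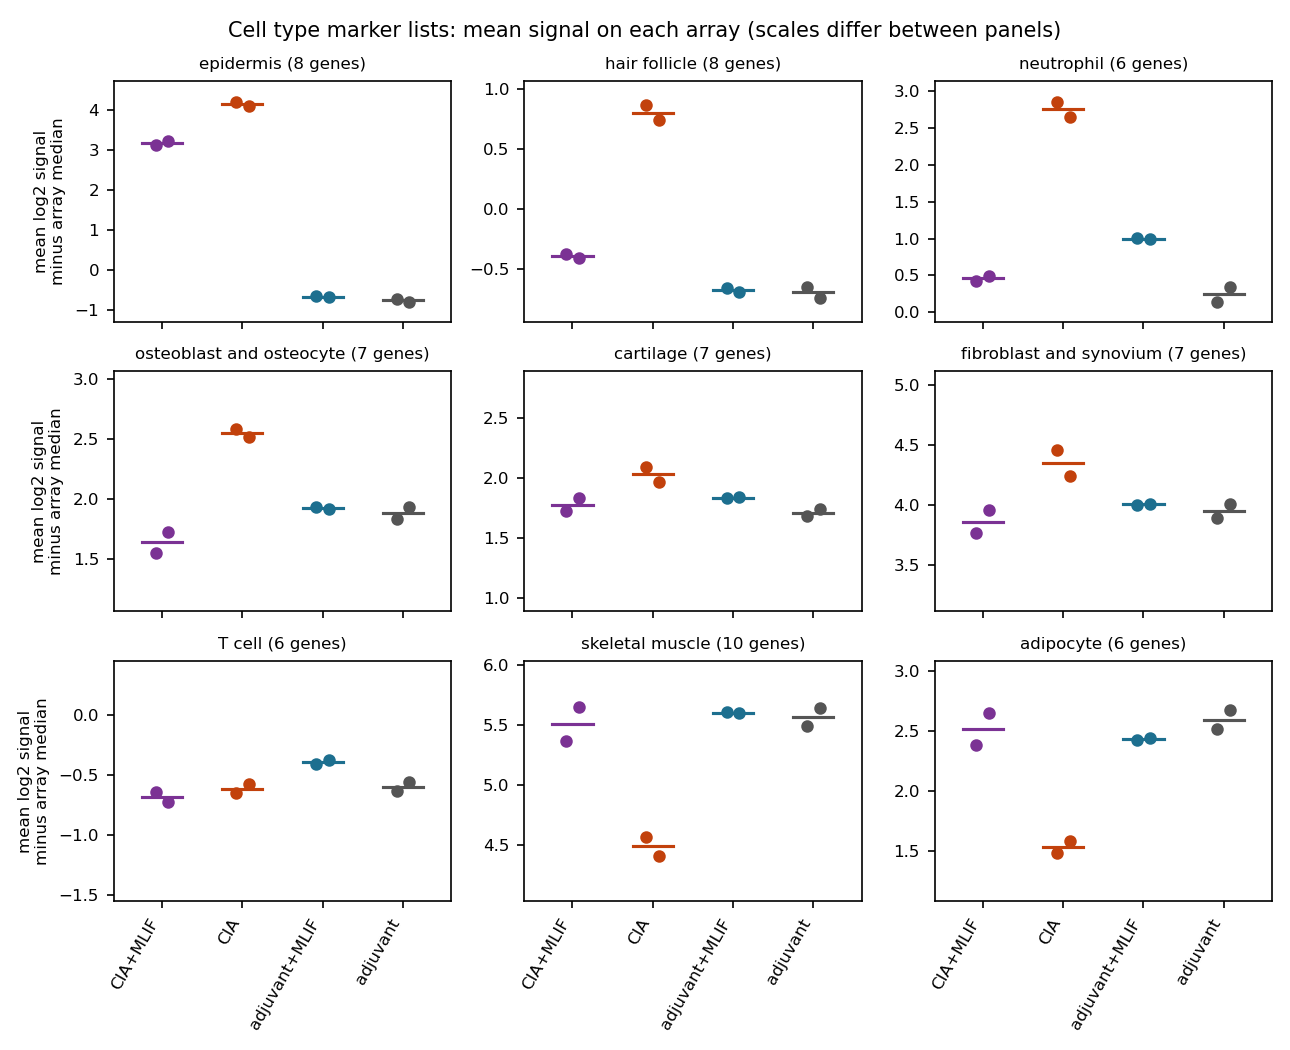
Mean log2 signal of each marker list minus the array's median (y axis, scale set per panel) on each array (points), with the group mean (line). The list means of epidermal genes are high in both collagen groups. Those of neutrophil, hair follicle and bone genes are highest in CIA, and those of muscle and adipocyte genes are lowest in CIA. On this scale the means of fibroblast and synovium genes and of cartilage genes are also highest in CIA, by smaller margins.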

How the data were processed

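The report rests on 8 arrays, 2 for each of 4 groups. The authors deposited log2 signals; the scale was read from their range. Which software and normalization made them is not given in the sources used. Labelling used 300 ng of RNA, per the labels. Of 35557 entries, the 6618 before the first annotated one were taken as controls and left out. Array tables carry no depth: the number of arrays limits the precision (median SE of a log2 change 0.18).

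All 28939 other probe sets (21789 with 1 symbol, 1621 with several, 5529 with none) entered 1 limma fit of 4 group means (4 residual and 4.96 prior degrees of freedom; limma 3.58.1 under R 4.3.3), with Benjamini-Hochberg adjustment over all of them. The fit was also run on simulated data with the same spread in all groups and no dim array. That run therefore says nothing about how the unequal spread and the dim CIA replicate 1 affect the calls. Gene symbols are those of the platform's annotation, and all 43 are in RefSeq (GRCm38.p6). Of the members only 1, Wnt4, had a second probe set. Members named with all arrays were those that passed in a comparison without overlap of the arrays (none required for the interaction). Axin2, Lef1, Lrp5, Lrp6, Dkk1, Frzb and Wnt5a were given in the same way whatever their values. Tcf7 was planned with them, but no probe set carried its symbol. Of the other pathway genes, the 4 largest rises and falls that passed were named. Other genes were named after seeing their values. The members and lists were chosen with earlier results of these data known. Alternatives were other scalings, a filter on dim probe sets, other variance models, array weights, a replicate block and leaving out arrays. Figures were drawn with Matplotlib 3.10.9.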

Additional observations from a re-analysis of the deposited data

Results flagged for a closer look

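In 2 genes the change with MLIF differed between collagen and adjuvant mice by a test of the difference itself (limma's interaction term). For Fzd4 it was 0.94 in collagen and -0.15 in adjuvant mice, a difference of 1.09 (SE 0.25, adjusted p = 0.0296; 0.00151 to 0.161 over 17 other settings). For Sfrp1 it was -0.75 in collagen and 0.20 in adjuvant mice, a difference of -0.95 (SE 0.20, adjusted p = 0.0207; 0.00233 to 0.168). In both genes the 2 CIA arrays stood apart from the other 6.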

How the results depend on the processing

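The 21 calls of single genes kept their direction in every setting tried, although many lost significance. Members called in CIA against adjuvant were 9 as reported, 15 after quantile normalization, 2 with array weights, 3 with only the compared groups in the fit, 4 at an adjusted p under 0.01 and 2 to 25 with an array left out. With the replicate block they were 9. In CIA+MLIF against CIA they were 10, 1 with array weights, 2 with only the compared groups, 3 at 0.01, 1 to 27 with an array left out and 11 with the replicate block. Averaging the adjuvant+MLIF arrays gave 6 and 4 in these comparisons, and quantile normalization without CIA replicate 1 gave 13 and 11; both alternatives were chosen after seeing the data. In adjuvant+MLIF against adjuvant and CIA+MLIF against adjuvant+MLIF 0 were called, 2 and 1 with array weights, and 0 with the replicate block or an array left out. The interaction gave 2 as reported and with the replicate block, 11 after quantile normalization, 10 with arrays centred, 6 with the dimmest probe sets left out, 5 with a trended and robust variance, 0 at 0.01, 0 with the adjuvant+MLIF arrays averaged, 11 with quantile normalization without CIA replicate 1, and 0 to 18 with an array left out. Where an array was left out its group's other array was assumed to vary like the other groups. Deviations of same-numbered arrays from their group means correlated between -0.11 and 0.39 over probe sets. The highest value was that of CIA+MLIF with adjuvant, and the next highest was 0.0051. The cause of the former was not tested. The labels name no pairs, and the arrays were not taken as pairs.

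Some values without a call changed direction. The members' median change in CIA against adjuvant was -0.18, but 0.085 after quantile normalization, 0.037 with arrays centred, 0.034 after quantile normalization without CIA replicate 1, -0.37 to 0.0082 with an array left out, reversed without CIA replicate 1. The members' median change in CIA+MLIF against CIA was 0.17, but -0.025 after quantile normalization, -0.059 with arrays centred, -0.048 after quantile normalization without CIA replicate 1, -0.0074 to 0.34 with an array left out, reversed without CIA replicate 1. The members' median change in the interaction was 0.10, but -0.17 after quantile normalization, -0.12 with arrays centred, -0.091 after quantile normalization without CIA replicate 1, -0.035 to 0.32 with an array left out, reversed without CIA replicate 1. Dkk1 in CIA against adjuvant was -0.078, but 0.085 after quantile normalization, 0.14 with arrays centred, 0.024 after quantile normalization without CIA replicate 1, -0.19 to 0.039 with an array left out, reversed without CIA replicate 1. Dkk1 in CIA+MLIF against CIA was -0.089, but -0.22 to 0.040 with an array left out, reversed without CIA replicate 2 or CIA+MLIF replicate 2. Lrp6 in CIA against adjuvant was -0.17, but 0.048 with arrays centred. Lrp6 in CIA+MLIF against CIA was 0.12, but -0.018 after quantile normalization, -0.11 with arrays centred. Wnt5a in CIA against adjuvant was -0.089, but 0.081 after quantile normalization, 0.13 with arrays centred, 0.018 after quantile normalization without CIA replicate 1, -0.20 to 0.026 with an array left out, reversed without CIA replicate 1. Wnt5a in CIA+MLIF against CIA was 0.20, but -0.024 with arrays centred. The cause was not tested.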
